A study of Mus musculus with 8 samples.

Results

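Transcripts of 10 neutrophil granule and cytosolic protein genes were followed in mouse liver: Mpo, Elane, Ctsg and Prtn3 (primary granule genes), and Ltf, Camp, Ngp, Chil3, S100a8 and S100a9 (later genes). The genes were fixed by name, current or older, and every probe so named was taken, which gave 11 probes, 1 per gene and 2 for Ltf. All 10 genes were among the 18137 genes measured. Liver RNA was hybridised to 8 one-colour Agilent arrays, 2 in each of 4 groups. KO mice were Albumin-Cre;Dicer1loxP/loxP, in which the albumin promoter drives Cre to delete Dicer1 in hepatocytes, and WT mice were Dicer1loxP/loxP littermates without Cre. The groups were KO after N-ethyl-N-nitrosourea (ENU), KO after vehicle, WT after ENU and WT after vehicle. ENU, an alkylating mutagen, was given once at 120 mg/kg into the peritoneum and livers were taken 15 days later. The vehicle was dimethylsulfoxide, in the same volume of 2 ml/kg, and its day is not given in the sources used here. All mice were C57BL/6 females of 6 months per the labels, and how many mice an RNA sample represents is not given there.

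Neutrophils store antimicrobial proteins in granules that form one after another while the cell matures in the bone marrow. Primary (azurophil) granules fill first, at the promyelocyte stage, with myeloperoxidase and serine proteases, and lactoferrin, cathelicidin and Ngp follow in the secondary granules at the myelocyte stage. S100a8 and S100a9 are cytosolic rather than granule proteins and are abundant in the mature cell, whose granules are full while the transcripts of the primary granule proteins have largely gone. In adult liver, neutrophils are few at rest and enter from the blood, and monocytes and macrophages can also express S100a8, S100a9 and Chil3. In liver RNA, a change in the number of cells and a change in the RNA per cell cannot be told apart.

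Levels are given as the log2 of a probe's signal over its array's 75th percentile, so a level of 0 is that percentile and levels of different probes cannot be set against each other. The 2 arrays of a group differed about as much as the noise between spots, and were for this reason counted as 1 RNA sample and averaged. Each contrast of 2 groups therefore sets 1 RNA sample against 1 and has no test, and a fold above 2 is used only as a size. The test is limma on the 4 RNA samples, with terms for genotype and for treatment and Benjamini-Hochberg adjustment over all genes, and "rose" and "fell" are used for an adjusted p under 0.05. Where a gene was not well above background in WT, its average log2 difference is taken against background signal, and the bound (at least so many fold) is the measure of its size. The p-values of the test rest on the spread between these samples. For a gene this is how far the ENU difference departs between the genotypes, with 1 residual degree of freedom. It is moderated by a prior taken from all genes and worth 2.91 degrees of freedom. The p-values, SE and intervals therefore lean mostly on that prior. Dicer1 itself was lower in KO by -0.25 after ENU and -0.50 on vehicle (log2) at its brighter probe, and by -1.51 and -2.46 at its second probe. Probes of 4 Y-linked genes (Ddx3y, Eif2s3y, Kdm5d and Uty) were well above background on all 8 arrays, which goes against the female label of every group. All 4 ENU arrays shared a slide and a scan, and all 4 vehicle arrays shared another, and KO arrays lay at positions 1 and 2 and WT arrays at positions 3 and 4 of each slide. ENU therefore cannot be told apart from slide, nor genotype from position.

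Of the 10 genes, 9 rose in KO livers and 1, Prtn3, did not pass the test. Of all genes, 16.9% rose in KO and 15.3% fell. On the measured signals, the KO minus WT difference was above 2-fold for 9 of 10 genes after ENU, where 16.2% of all genes were. It was also above 2-fold for 9 of 10 on vehicle, where 17.3% of all genes were. The vehicle count includes Elane, which was above background on no WT array and whose bound there is only at least 1.06-fold. The median log2 difference of the 4 primary genes was 3.15 after ENU and 1.93 on vehicle, and that of the 6 later genes was 3.49 and 3.14. Over all genes the medians were -0.10 and -0.14. With genes that were not above background in WT taken at their bounds, the primary medians were 2.29 and 0.88 and the later medians 3.49 and 3.0.

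**Figure D1:**
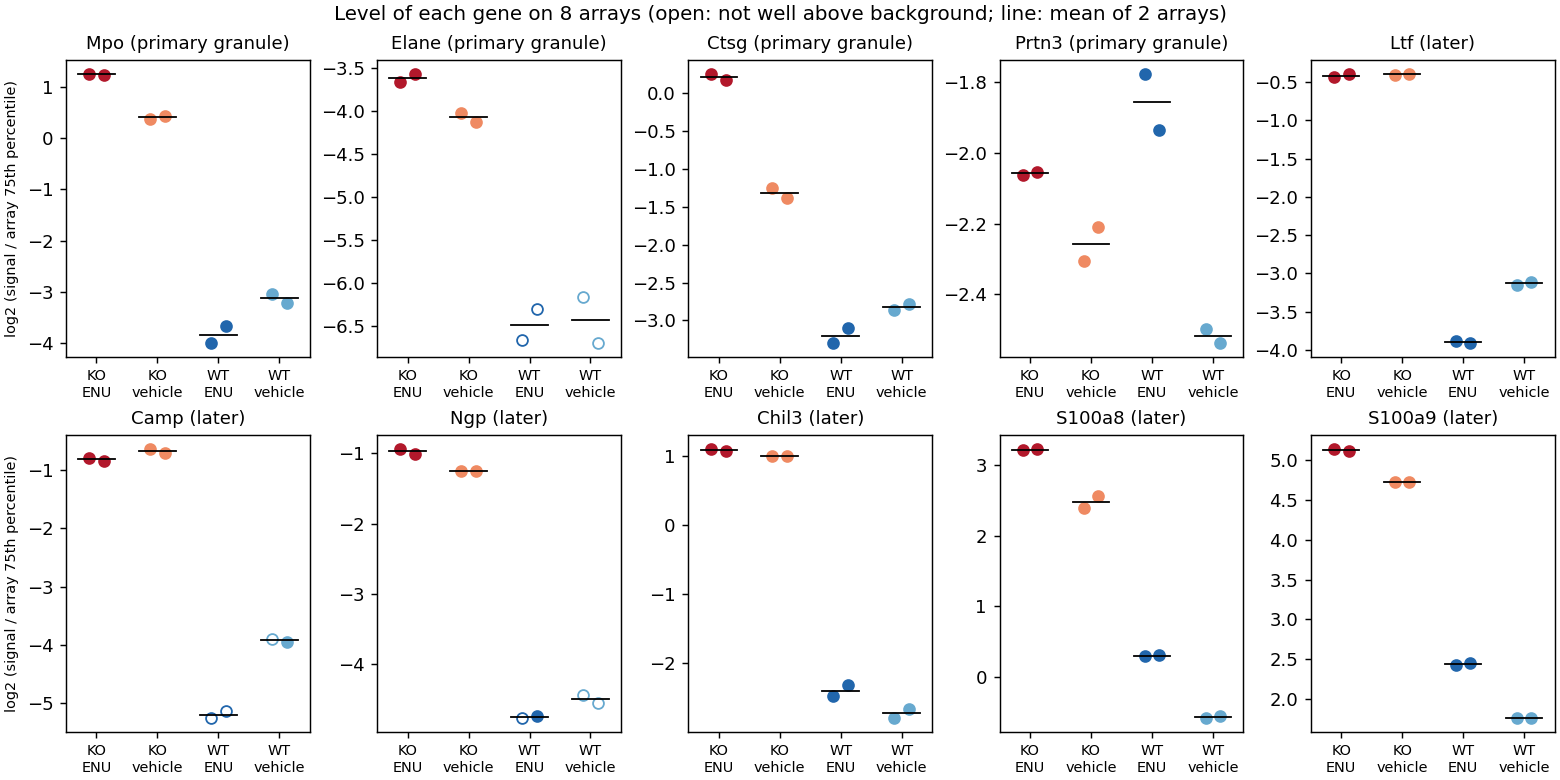
Level of each gene on each of the 8 arrays (y axis, log2 of signal relative to the 75th percentile of its array, own range per gene; x axis, the 4 groups). Points are arrays, open where the probe was not well above background, and lines are the means of 2 arrays. KO arrays lie above WT arrays for every gene but Prtn3, with all WT points of Elane open. The share of all genes so separated was not computed.

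Mpo, Ctsg, Elane and Prtn3 are products of the promyelocyte stage, and their promoters are shown together because Prtn3 and Elane are neighbours on chromosome 10, with no annotated gene between them, and Elane rose in KO while Prtn3 did not pass the test. The sequences are RefSeq's for GRCm38.p6, run from 250 bases before to 50 after the gene's start, 5′ to 3′ on the gene's strand, and were found for all 10 genes. They lie at chr11:87793534-87793833 (plus strand, Mpo), chr14:56102525-56102824 (minus, Ctsg), chr10:79886062-79886361 (plus, Elane) and chr10:79879417-79879716 (plus, Prtn3). Capitals mark GAGGAA, a core that ETS factors such as PU.1 can bind, and AACGG, a core of MYB sites, each on either strand.
Mpo: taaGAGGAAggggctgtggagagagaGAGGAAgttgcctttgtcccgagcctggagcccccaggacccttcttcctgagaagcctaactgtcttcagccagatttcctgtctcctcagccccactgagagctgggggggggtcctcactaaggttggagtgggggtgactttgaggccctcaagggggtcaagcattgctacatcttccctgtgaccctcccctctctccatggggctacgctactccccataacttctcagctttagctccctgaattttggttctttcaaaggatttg
Ctsg: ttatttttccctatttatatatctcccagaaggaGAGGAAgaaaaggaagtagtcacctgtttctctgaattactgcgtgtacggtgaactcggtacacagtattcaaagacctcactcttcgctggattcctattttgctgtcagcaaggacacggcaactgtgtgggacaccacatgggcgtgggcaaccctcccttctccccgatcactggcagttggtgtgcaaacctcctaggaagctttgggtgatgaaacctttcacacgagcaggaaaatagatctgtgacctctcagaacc
Elane: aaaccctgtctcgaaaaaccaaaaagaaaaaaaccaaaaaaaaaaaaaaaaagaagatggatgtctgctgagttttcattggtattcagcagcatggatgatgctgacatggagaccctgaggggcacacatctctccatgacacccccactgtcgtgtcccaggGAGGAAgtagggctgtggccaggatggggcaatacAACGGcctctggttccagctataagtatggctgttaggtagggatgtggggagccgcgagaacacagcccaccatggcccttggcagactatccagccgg
Prtn3: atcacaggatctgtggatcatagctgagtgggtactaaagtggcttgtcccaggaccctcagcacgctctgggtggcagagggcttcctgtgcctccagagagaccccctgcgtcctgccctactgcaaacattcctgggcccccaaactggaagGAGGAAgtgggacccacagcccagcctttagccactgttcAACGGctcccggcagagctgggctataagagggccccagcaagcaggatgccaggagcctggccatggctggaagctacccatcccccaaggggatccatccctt
GAGGAA stood in all 4 of these promoters, and in those of Ltf and S100a8, so in 6 of 10 against 28.3% of 32851 RefSeq promoters. AACGG stood only in those of Elane and Prtn3 among the 10 genes, against 17.4% of all promoters. In the Prtn3 promoter GAGGAA began at -95 and AACGG at -55, and in the Elane promoter at -85 and -50, so both promoters hold the same 2 motifs in the same order. In all, 8 motifs were searched on both strands, and the 3 capitalised in the sequences (these and the C/EBP core shown for Ltf and Ngp) were picked after their matches were seen. The others were TGTGGT (3 of 10 genes, 16.8% of all promoters), TGNGGT, which includes the last (3 of 10, 45.8%), TGACTCA (0 of 10, 5.2%), CCAAT (4 of 10, 37.4%) and TATAAA (4 of 10, 13.6%).

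Mpo encodes myeloperoxidase, which makes hypochlorous acid in the phagosome. Its probe lies on mm7 chr11:87873508-87874283 and gave 1.27 and 1.24 in KO ENU, 0.38 and 0.44 in KO vehicle, -4.01 and -3.68 in WT ENU, and -3.04 and -3.22 in WT vehicle. Both KO groups were above both WT groups, and all 4 groups were apart from each other. The level was 34.2-fold higher in KO than in WT after ENU and 11.6-fold higher on vehicle. Averaged over treatments, Mpo rose in KO by 4.32 ± 0.43 (log2, SE) in limma, with an adjusted p of 0.0124.

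Ctsg encodes cathepsin G, a chymotrypsin-like protease. Its level was 0.26 and 0.18 in KO ENU, -1.25 and -1.38 in KO vehicle, -3.30 and -3.11 in WT ENU, and -2.86 and -2.79 in WT vehicle. KO ENU stood highest and WT ENU lowest, with no overlap between groups. KO was 10.8-fold higher than WT after ENU and 2.84-fold higher on vehicle. Ctsg rose in KO by 2.47 ± 0.52 (SE, limma adjusted p = 0.0369). Under quantile normalization the adjusted p was 0.06, which ends the call.

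Elane encodes neutrophil elastase and carries the older name Ela2 in the files. Its level was -3.66 and -3.56 in KO ENU, -4.02 and -4.12 in KO vehicle, -6.65 and -6.30 in WT ENU, and -6.16 and -6.69 in WT vehicle. The probe was well above background on all 4 KO arrays and on no WT array, and the WT groups overlap. KO was at least 2.21-fold higher than WT after ENU and at least 1.06-fold higher on vehicle. Elane rose in KO by 2.61 ± 0.22 (SE, limma adjusted p = 0.0105), but with normexp background correction the difference was 0.24 with an adjusted p of 0.22, which ends the call.

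Prtn3 encodes proteinase 3, a close relative of elastase. Its level was -2.06 and -2.05 in KO ENU, -2.31 and -2.21 in KO vehicle, -1.78 and -1.94 in WT ENU, and -2.50 and -2.54 in WT vehicle, with every array well above background. The order was WT ENU, KO ENU, KO vehicle and WT vehicle, so the genotypes interleaved. The average KO minus WT difference was 0.03 ± 0.22 (SE, limma adjusted p = 0.926), with a 95% interval of -0.57 to 0.63. The sign of the Prtn3 difference turned under normexp (-0.09), quantile normalization (-0.16) and median centring (-0.09), and without WT ENU array b (-0.01). The probe spans 817 bases of mm7 chromosome 10, 79661141 to 79661957, and no second probe of Prtn3 was present to compare.

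**Figure D2:**
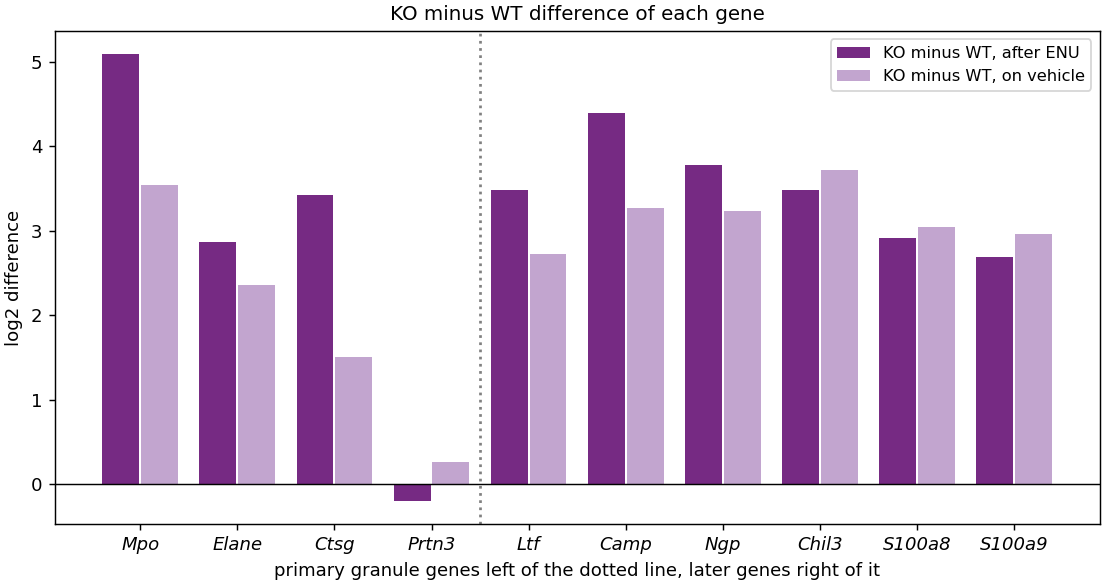
KO minus WT log2 difference of each gene (y axis) after ENU (dark bars) and on vehicle (light bars), primary granule genes left of the dotted line. Each bar is 1 RNA sample against 1, so it has no error bar. Elane, Camp after ENU and Ngp on vehicle were not above background in WT, so their bars rest on dim WT signals. Prtn3 is -0.20 and 0.26, while the other genes lie between 1.51 and 5.09.

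Ltf encodes lactoferrin, the iron-binding protein of secondary granules, and Ngp encodes a cystatin-like granule protein. Their promoters are shown because both hold TTGCNNAA, a core of C/EBP sites, which stood in 3 of 10 promoters (Ngp, Ltf and S100a9) against 10.8% of all RefSeq promoters. They lie at chr9:111019042-111019341 (Ltf) and chr9:110419558-110419857 (Ngp), both on the plus strand of GRCm38.p6, and capitals mark TTGCNNAA and GAGGAA on either strand.
Ltf: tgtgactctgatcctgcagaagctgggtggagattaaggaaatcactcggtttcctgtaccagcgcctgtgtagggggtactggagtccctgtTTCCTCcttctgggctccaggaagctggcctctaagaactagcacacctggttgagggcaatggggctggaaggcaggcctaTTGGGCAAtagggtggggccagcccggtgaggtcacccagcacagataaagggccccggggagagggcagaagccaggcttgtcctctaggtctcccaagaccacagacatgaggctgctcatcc
Ngp: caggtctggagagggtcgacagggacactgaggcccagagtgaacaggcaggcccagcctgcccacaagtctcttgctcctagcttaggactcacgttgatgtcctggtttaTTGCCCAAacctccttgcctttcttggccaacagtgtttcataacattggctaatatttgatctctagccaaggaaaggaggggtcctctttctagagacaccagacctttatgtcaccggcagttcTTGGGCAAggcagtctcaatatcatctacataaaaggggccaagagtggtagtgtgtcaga
The Ngp promoter holds TTGCNNAA at -138 and -11 and that of Ltf at -75, each match being of these letters only.

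The brighter of 2 Ltf probes gave -0.44 and -0.39 in KO ENU, -0.40 and -0.40 in KO vehicle, -3.89 and -3.91 in WT ENU, and -3.15 and -3.11 in WT vehicle. The KO groups overlap, and WT ENU was the lowest group. KO was 11.2-fold higher than WT after ENU and 6.63-fold higher on vehicle, and Ltf rose by 3.11 ± 0.26 (SE, limma adjusted p = 0.0105). The second Ltf probe gave -1.20 and -1.29 in KO ENU, -1.61 and -1.70 in KO vehicle, -4.55 and -4.55 in WT ENU, and -4.35 and -3.87 in WT vehicle, again with KO above WT.

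Camp encodes cathelicidin, which is cut to an antimicrobial peptide after release. It gave -0.79 and -0.84 in KO ENU, -0.63 and -0.70 in KO vehicle, -5.26 and -5.14 in WT ENU, and -3.90 and -3.95 in WT vehicle. The 4 KO arrays were close together and far above WT, where 0 of 2 ENU arrays and 1 of 2 vehicle arrays were well above background. KO was at least 15.4-fold higher than WT after ENU and 9.60-fold higher on vehicle. Camp rose in KO by 3.83 ± 0.34 (SE, limma adjusted p = 0.0111).

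Ngp gave -0.93 and -1.01 in KO ENU, -1.25 and -1.26 in KO vehicle, -4.77 and -4.74 in WT ENU, and -4.43 and -4.55 in WT vehicle. The WT signal was well above background on 1 of 2 ENU arrays and 0 of 2 vehicle arrays. KO was 13.7-fold higher than WT after ENU and at least 7.45-fold higher on vehicle. Ngp rose in KO by 3.51 ± 0.23 (SE, limma adjusted p = 0.0100). With normexp, which shrinks dim signals, the average KO minus WT difference of Ltf was 1.94, of Camp 1.90, of Ngp 1.65, of Mpo 3.07, of Ctsg 1.66 and of Chil3 2.81, all still past the threshold.

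Chil3 encodes Ym1, a chitinase-like lectin that macrophages also make, under its older name Chi3l3 in the files. It gave 1.1 and 1.07 in KO ENU, 0.99 and 1.0 in KO vehicle, -2.48 and -2.32 in WT ENU, and -2.80 and -2.66 in WT vehicle. Every array was well above background and KO stood above WT on each. KO was 11.2-fold higher after ENU and 13.2-fold higher on vehicle, and Chil3 rose by 3.60 ± 0.19 (SE, limma adjusted p = 0.0100). Its near copy Chil4, with a probe of its own but a similar sequence, passed the test too (adjusted p = 0.0104). Chil4 was above background on no WT array, and KO was at least 4.40-fold higher after ENU and at least 2.22-fold higher on vehicle. Signal shared between the copies cannot be told apart here.

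S100a8 and S100a9 form calprotectin, which binds calcium and zinc and is a large part of neutrophil cytosolic protein. S100a8 gave 3.21 and 3.23 in KO ENU, 2.39 and 2.56 in KO vehicle, 0.30 and 0.31 in WT ENU, and -0.59 and -0.55 in WT vehicle. S100a9 gave 5.14 and 5.11 in KO ENU, 4.72 and 4.72 in KO vehicle, 2.43 and 2.45 in WT ENU, and 1.76 and 1.77 in WT vehicle. Both genes kept the same order of groups, KO ENU, KO vehicle, WT ENU and WT vehicle, with no overlap. The KO level of S100a8 exceeded that of WT 7.56-fold after ENU and 8.26-fold on vehicle, and rose by 2.98 ± 0.18 (SE, limma adjusted p = 0.0100). The excess of S100a9 was 6.44-fold and 7.77-fold, and it rose by 2.82 ± 0.19 (adjusted p = 0.0100). The pair are adjacent genes on chromosome 3.

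No gene passed the threshold for ENU: 0.0% of all genes in limma's 4-sample fit, although 3992 had an unadjusted p under 0.05. When limma was run on normexp values, 3 genes passed, all lower. None of the 10 genes passed in either. The fit has little power for sparse changes. Simulated for KO minus WT only, it recovered 0% of changes of 1 and 2 log2 with 200 changed genes. With 5000 changed genes it recovered 63.9% and 97.2%. ENU responses that differ between genotypes also go into its residual. The lack of calls therefore does not show that ENU changed no gene. As single comparisons without a test, ENU minus vehicle in KO was above 2-fold for 1 of 10 genes, Ctsg (1.54 log2, 2.90-fold), where 4.33% of all genes were. In WT it was above 2-fold for 0 of 10 genes, where 7.18% of all genes were, and over 2-fold lower on the measured signals for 1 of 10, Camp (-1.28, a bound of at least 1.78-fold lower), where 5.49% of all genes were. The median of the primary genes was 0.65 in KO and -0.22 in WT, and that of the later genes 0.19 and 0.03. In WT these medians were unstable. With dim genes at their bound or left out they were -0.38 for the primary genes and 0.33 for the later genes. Without 1 WT array the primary median ran from -0.35 (without ENU array b) to -0.08 (without ENU array a), at -0.33 and -0.10 without vehicle arrays b and a, and the later one from -0.01 to 0.08 without ENU arrays b and a. Under quantile normalization they were 0.01 and -0.01. Over all genes the medians were -0.06 and -0.04.

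Mpo and Ctsg ran in opposite directions in the genotypes. Mpo was higher after ENU in KO by 0.84 and lower in WT by -0.71, and Ctsg higher in KO by 1.54 and lower in WT by -0.38. Elane was 0.46 higher in KO and not above background in WT. S100a8 was higher after ENU in both genotypes, by 0.75 in KO and 0.87 in WT, and S100a9 by 0.41 and 0.68. Prtn3 was 0.20 higher in KO and 0.66 higher in WT. The difference between genotypes was not tested, since it is the only residual of the fit.

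**Figure D3:**
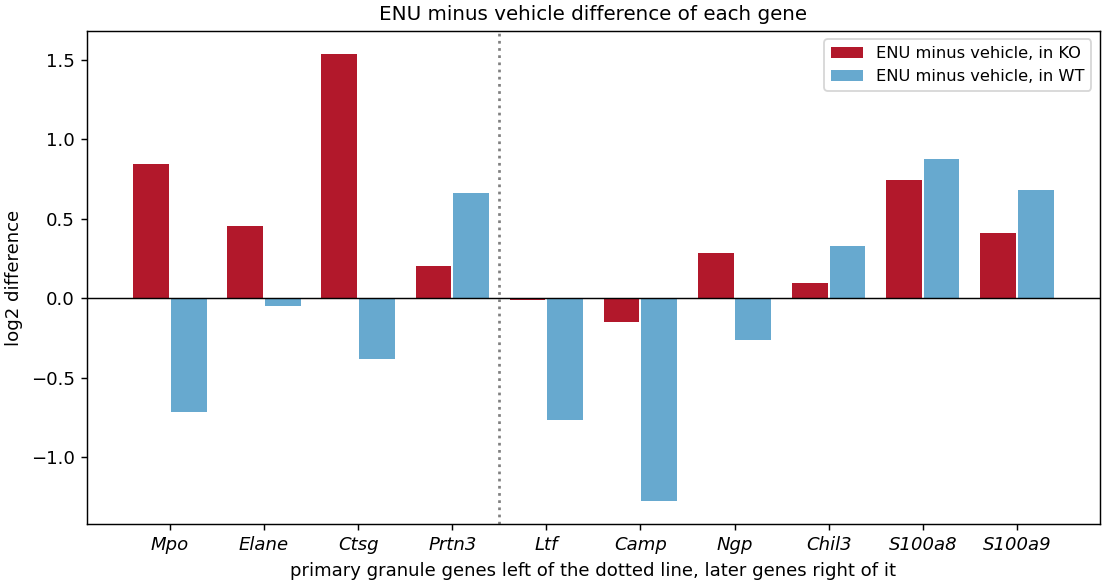
ENU minus vehicle log2 difference of each gene (y axis) in KO (red bars) and in WT (blue bars), primary granule genes left of the dotted line, each bar 1 RNA sample against 1. Elane in WT, and Ngp and Camp in WT after ENU or vehicle, rest on dim signals. Ctsg in KO is the tallest bar at 1.54, and Camp in WT the lowest at -1.28.

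Of 22 other granule protein genes tested, 18 rose in KO and none fell, where 16.9% of all genes rose and 15.3% fell. The list held 30 genes, of which 7 did not pass the filter on dim probes and 1 had no probe. A gene dim in WT passes the filter only through KO and can hardly fall, in this list as among all genes. Lcn2, which binds bacterial siderophores, rose by 3.55. The collagenase Mmp8 and Ms4a3, a gene of the promyelocyte stage, rose too but were above background on no WT array. KO Mmp8 was at least 2.05-fold higher than WT after ENU and at least 2.01-fold higher on vehicle, and KO Ms4a3 at least 3.83-fold and 1.53-fold higher. Ctsc, the protease that activates elastase, cathepsin G and proteinase 3, differed by -0.01 (adjusted p = 0.969). Of 21 genes of mature neutrophils, 12 rose and 2 fell. Csf3r, the receptor of granulocyte colony-stimulating factor, rose by 1.97, while Wfdc21 fell by 2.90. The chemokine receptor Cxcr2 rose and was above background on no WT array, KO being at least 3.08-fold higher after ENU and at least 3.41-fold higher on vehicle. Ly6g and Cebpe had no probe that could be named, and Bpi and Fcnb did not pass the filter on dim probes.

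Of 12 granulocyte transcription factor genes, 5 rose and 1 fell, where 16.9% of all genes rose and 15.3% fell. Gfi1, a repressor needed for neutrophil maturation, passed the test but was above background on no WT array, with KO at least 1.27-fold higher after ENU and no fold measurable on vehicle. Cebpa, which hepatocytes also express, fell by 0.90 (adjusted p = 0.0343). Of 13 progenitor genes, 5 rose and 1 fell, with Cd34 at 2.76 and Kit, the stem cell factor receptor, at 0.17 (adjusted p = 0.67). Of 11 attractant and growth factor genes, 7 rose and none fell. Among them Ccl4 rose by 2.36. Cxcl5 passed the filter only through KO ENU, which was at least 1.49-fold higher than WT ENU, and it was not above background in the other groups. Cxcl1 differed by 0.41 (adjusted p = 0.462). Csf3 and Cxcl2 did not pass the filter.

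Of 13 S100 genes, 7 rose, S100b and S100a11 by 4.07 and 3.56, and 2 fell, beside the same shares over all genes. Of 7 chitinase-like genes, 4 rose and 1 fell, with Chit1 at 1.15. These lists hold S100a8, S100a9 and Chil3, which count in them.

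Markers of some other cell types moved with genotype and their part in the results was not tested. Over all genes 16.9% rose and 15.3% fell. Of 18 monocyte and macrophage markers, 11 rose in KO and none fell, and their summed linear level was 372 to 376 in KO ENU, 213 in KO vehicle, 150 to 155 in WT ENU, against 96.6 to 97.4 in WT vehicle. Trem2, well above background on every array, rose by 4.515, beside 4.32 for Mpo, the largest of the 10 genes. Gpnmb, F13a1 and Cx3cr1 rose too. Gpnmb and F13a1 were above background on no WT array, and Cx3cr1 on no WT vehicle array. The KO excess of Gpnmb was at least 10.65-fold with ENU and 4.89-fold on vehicle, and that of F13a1 at least 5.98-fold and 9.89-fold. For Cx3cr1 it was 14.2-fold with ENU and at least 15.9-fold on vehicle. Lyz2, shared by macrophages and neutrophils, rose by 2.38, and Adgre1, a macrophage marker, by 1.08. The Kupffer cell lectin Clec4f differed by 0.39 (adjusted p = 0.273). Of 10 hepatocyte markers, 6 fell and none rose, and the summed level was 2052 to 2056 in KO ENU, 1963 to 2082 in KO vehicle, 3102 to 3274 in WT ENU, against 3259 to 3309 in WT vehicle. Of 10 erythroid markers, 2 rose and 3 fell, and their summed level was 200 to 216 in KO ENU, 155 in KO vehicle, 317 to 320 in WT ENU, against 486 to 488 in WT vehicle. Alas2, the first enzyme of haem synthesis in red cells, fell by 3.34. Of 14 lymphocyte markers, 4 rose and 2 fell. Of 12 megakaryocyte markers, 2 rose and 2 fell, near the shares over all genes.

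**Figure D4:**
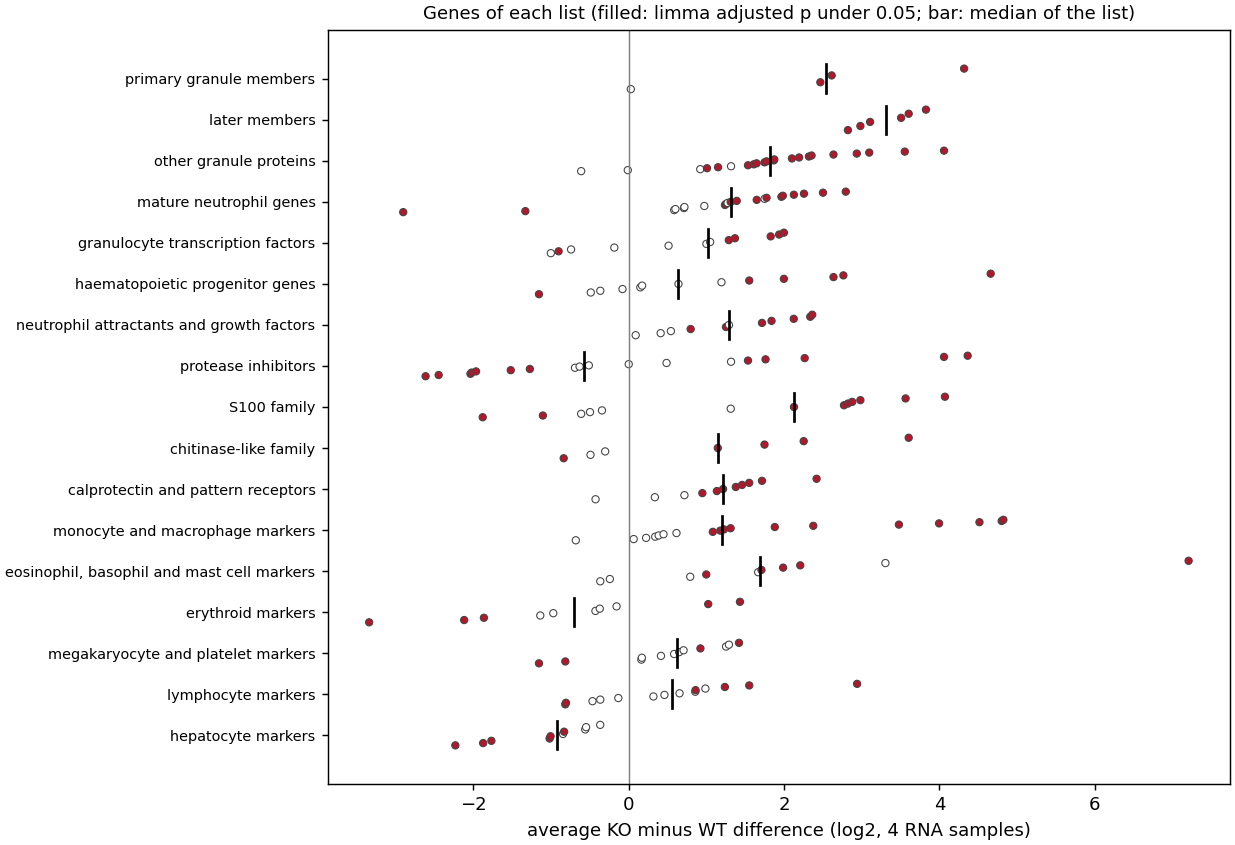
Average KO minus WT log2 difference (x axis) of each tested gene in each gene list (rows), filled where limma's adjusted p is under 0.05, with the list's median as a bar. Most granule protein genes lie right of 0 and hepatocyte markers left of it.

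The eosinophil granule genes Prg2, Epx and Prg3 were above background only in KO ENU, unlike Ear1, Ear6 and Ear10, given below. Prg2, the major basic protein of eosinophil granules, gave -0.06 and -0.09 in KO ENU and was not above background in any other group, so that KO ENU was at least 25.7-fold higher than WT ENU and at least 29.4-fold higher than KO vehicle. Epx, eosinophil peroxidase and a relative of Mpo, was at least 3.54-fold and 4.04-fold higher in the same comparisons. Prg3, named after its values were seen, was at least 1.13-fold and 1.29-fold higher. Prss57, a primary granule protease of neutrophils, was above background only in KO ENU, at -4.80. The dimmest signals that counted as well above background in WT ENU were -4.45 on array a and -5.06 on array b. No fold over WT ENU could therefore be given for Prss57, and KO ENU was at least 1.11-fold higher than KO vehicle. None of Prg2, Epx, Prg3 and Prss57 passed limma's 4-sample test, with adjusted p of 0.134 for Prg2 and 0.349 for Epx. That fit has no term for a change confined to 1 group. Such a change goes into its residual, so the test cannot decide on this pattern. Siglecf, a receptor of eosinophils, rose in KO and was above background in both KO groups only, at least 60.9-fold higher than WT after ENU and at least 17.6-fold higher on vehicle. Of 10 eosinophil, basophil and mast cell markers tested, 5 rose and none fell, and Cpa3 and Mcpt8 did not pass the filter. Ear1, Ear6 and Ear10 were among those that rose. They were above background on both arrays of KO ENU, KO vehicle and WT ENU. After ENU, KO was 3.08-fold, 1.97-fold and 3.64-fold higher than WT. On vehicle it was 5.11-fold, at least 1.84-fold and at least 3.11-fold higher. The summed level of the 10 markers was 5.69 to 5.72 in KO ENU, 2.53 to 2.56 in KO vehicle, 1.29 to 1.36 in WT ENU, against 0.686 to 0.70 in WT vehicle. Their part in the higher Mpo and Ctsg of KO ENU was not tested.

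**Figure D5:**
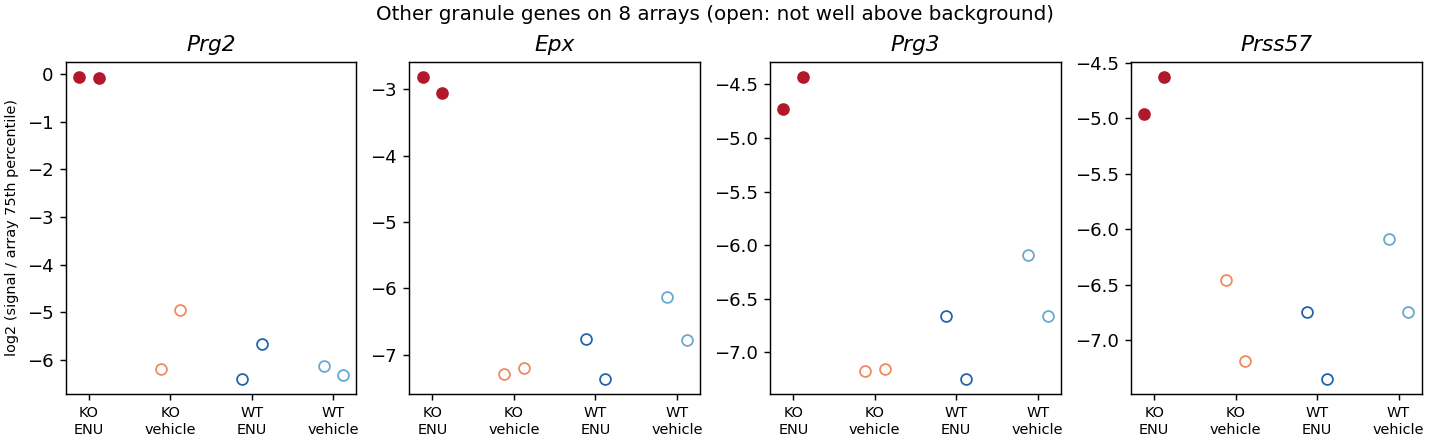
Level of Prg2, Epx, Prg3 and Prss57 on each array (y axis, log2 of signal relative to the 75th percentile of its array, own range per gene; x axis, the 4 groups), open where not well above background on both arrays of the group. All 4 are filled only in KO ENU.

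By the smallest root mean square difference of centred log2 levels over the 4 RNA samples, the genes most like the mean of the primary genes were Ccdc136, Ank3, Ccne1, Stil and Fndc10, at 0.11 to 0.13. Those most like the mean of the later genes were Ifi27l2b at 0.04, Spon1 at 0.08, Tmem119 at 0.08 and Gm5086 at 0.09, beside 1 transcript without a gene symbol. Ccne1, which encodes cyclin E1, had KO minus WT differences of 2.74 after ENU and 1.78 on vehicle, and Ifi27l2b of 3.56 and 3.12. Ccdc136, Stil, Fndc10, Spon1, Gm5086 and the unnamed transcript were well above background on 0 of the 4 WT arrays, so their ranks rest on background signal in WT, as does part of both mean profiles through Elane, Camp and Ngp. With 4 samples and this many genes, such likeness is a description.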

How the data were processed

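The deposited intensity values were made by the authors with Agilent Feature Extraction, version 10.7.1.1 per the file headers and 10.5.1 per the submitters' processing notes. They are the background-corrected processed signal, with mean signal and local background. From these, the log2 of the processed signal was taken and the 75th percentile of the array subtracted, with control and outlier spots left out and spots of a probe averaged. A probe had to be well above background on both arrays of a group, 1 group being enough, and a gene was represented by its brightest probe, leaving 18137 genes. Of 41174 probes, 22951 were named by accession, 6659 by symbol and 3109 by synonym in a RefSeq table of GRCm38.p6, and 8455 kept the files' name. Probe coordinates are those of the files (mm7), and no annotation of mm7 was used, so exon and UTR are not stated.

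Between 54.7% and 69.3% of spots were well above background and none was saturated. The number of arrays limits the precision. Arrays of a group differed by a median absolute standardised difference of 0.692 to 0.844, where 0.706 is the value without a difference, and arrays of different groups by 10.6 to 26.7. They were counted as 1 sample, and limma 3.58.1 in R 4.3.3 was fitted to 4 RNA samples with 1 residual degree of freedom. Where a gene was not well above background in a group, the fold is a bound against the probe's own signal or, if higher, the dimmest signal that counted as well above background on that array.

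The genes and gene lists were chosen with earlier results of these data known. Genes named beside the 10 were drawn from 2 sources. These were up to 4 genes past the threshold with the largest change in each list, and a fixed set of neutrophil and other cell type genes. Not every gene so drawn is described, so those described are not always the largest changes of their list. Sox4, Myb, Klf5, Irf8, Clec4d and Il1r2 rose in KO and are not described. The fit was tested on simulated data for the average KO minus WT difference over 18137 genes. With 5000 changed genes and the spread between samples, it recovered 63.9%, 97.2% and 99.6% of changes of 1, 2 and 4 log2 units with 200 false calls. With 200 changed genes and that spread it recovered 0%, 0% and 76.5%, with 0 false calls, and with array noise alone 41.8%, 75.4% and 85.3%, with 5. The sparse case with sample spread was simulated first, in another draw, and the other cases were added after it recovered none of the changes of 1 and 2. Alternatives were normexp background correction, quantile normalization, median centring, no filter, all probes averaged, each array left out, and 8 arrays as samples.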

Additional observations from a re-analysis of the deposited data

Results flagged for a closer look

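For 14 of the named genes, both arrays of KO moved one way with ENU and both arrays of WT the other way. Genes above background on no WT array are not in this count. Among those, F13a1 (-1.20 in KO, 1.36 in WT) and Gfi1 (0.14 in KO, -0.78 in WT) had the same pattern. The share of all genes with it was not computed, so the count is a description. The value given is ENU minus vehicle in KO minus that in WT (log2), and the difference was not tested for any of them, since it is the residual of the fit. Among the neutrophil genes it was 1.92 for Ctsg (1.54 in KO, -0.38 in WT), 1.55 for Mpo (0.84 in KO, -0.71 in WT) and 0.54 for Ngp (0.28 in KO, -0.26 in WT, where WT vehicle was not above background). The granule membrane gene Cd63 had 0.78 and Slpi, an inhibitor of elastase and cathepsin G, -2.77 (-1.24 in KO, 1.53 in WT). The acute phase inhibitor gene Serpina3c had -1.58, the chemokine Cxcl1 -1.43, the receptor Cd14 -1.43 and the ATP receptor P2rx7 0.66. The progenitor genes Cd34 and Kit had -0.95 and -0.92, the erythroid genes Car1 and Alas2 -0.84 and -0.47, and the hepatocyte gene Cyp2e1 0.72.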

How the results depend on the processing

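The 9 genes that rose in KO stayed past the threshold in every setting of the 4-sample fit that was run, except Elane with normexp (adjusted p = 0.22) and Ctsg with quantile normalization (0.06); the cause was not tested. Over those settings the adjusted p of Elane ran from 0.00831 to 0.22 and that of Ctsg from 0.0316 to 0.06. With normexp the medians of the primary genes were 1.38 after ENU and 0.51 on vehicle for KO minus WT and 0.42 for ENU in KO, and those of the later genes 2.40, 2.27 and 0.22, with -0.09 for ENU in WT. Quantile normalization gave 3.42 (later, KO minus WT after ENU), 2.10 (primary, on vehicle), 0.70 and 0.20 (primary and later, ENU in KO) and 0.01 (primary, ENU in WT). Median centring gave 3.37 and 3.02 (later, KO minus WT after ENU and on vehicle), 1.82 (primary, on vehicle) and 0.17 (later, ENU in KO), and averaging all probes gave 0.24 for the last. Leaving out 1 array gave 0.16 to 0.21 for the later genes' ENU difference in KO and 1.82 to 2.05 for the primary genes on vehicle.

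The average KO minus WT difference of Prtn3 turned to -0.09 with normexp, -0.16 with quantile normalization, -0.09 with median centring and -0.01 without WT ENU array b (up to 0.07 without array a). The average ENU difference turned for Elane with normexp (-0.08), for Ngp with quantile normalization and median centring (-0.01 each) and without KO ENU array a (-0.01) or WT vehicle array b (-0.02; up to 0.04 without array a), and for Mpo without WT ENU array b (-0.02; up to 0.15 without array a). None of these passed the threshold. Genes higher against lower in KO were 3064 against 2780, and 2403 against 4169 with normexp, where 3 genes were lower with ENU. Taking the 8 arrays as samples, which tests array noise, gave 6642 higher and 8791 lower in KO and 6055 higher and 7348 lower with ENU. With the array letter as a replicate block these were 6608, 8716, 5968 and 7213. The letters mark arrays that were counted as 1 RNA sample from their likeness, so they were not taken to pair animals. Signal over background limits Elane, Camp and Ngp in WT.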

Other observations

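Genes for receptors of calprotectin and other danger signals, and for inhibitors of granule proteases, were also measured. Over all genes 16.9% rose in KO and 15.3% fell. Of 11 receptor genes, 8 rose and none fell, among them Cd14, the lipopolysaccharide co-receptor, by 2.42 and Tlr2, which recognises bacterial lipoproteins, by 1.72. Of 18 protease inhibitor genes, 5 rose and 7 fell. Slpi, which blocks elastase and cathepsin G, rose by 4.06. A2m rose and was above background on no WT array, KO being at least 10.6-fold higher after ENU and at least 4.20-fold higher on vehicle. By contrast, the liver serpins Serpina3c and Serpina3k fell by 2.61 and 2.44. The summed linear level of the protease inhibitor genes was 1529 to 1539 in KO ENU, 1646 to 1729 in KO vehicle, 3862 to 4009 in WT ENU, against 4133 to 4181 in WT vehicle.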
